A study of Rattus norvegicus with 9 samples.

Results

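The let-7 family of miRNAs was read here through its guide strands, the strand of each hairpin that is mainly loaded into the silencing complex. The 9 members, rno-let-7a-5p, rno-let-7b-5p, rno-let-7c-5p, rno-let-7d-5p, rno-let-7e-5p, rno-let-7f-5p, rno-let-7g-5p, rno-let-7i-5p and rno-miR-98-5p (rno, for the rat, is left off from here on), were taken by name from the 633 rat miRNAs listed, whatever their values, and no 3p arm was included. All 9 had enough counts to be tested, among 469 tested miRNAs. Small RNA had been sequenced from the hippocampus of rats of the Sprague-Dawley stock, with 3 libraries for each of 3 groups. Vehicle rats (VEH) received saline for 14 days and then for 7 more days. MK-801 rats were injected intraperitoneally with 0.2 mg/kg MK-801 daily for 14 days and then with saline for 7 days. MK-801+CLO rats had the same MK-801 course and then 10 mg/kg of the atypical antipsychotic clozapine (CLO) for 7 days. MK-801 (dizocilpine) blocks the NMDA type of glutamate receptor, and its repeated injection serves as a rodent model of schizophrenia. None of the groups received clozapine without MK-801. The title of the series speaks of co-administration of MK-801 and clozapine, whereas the protocol gives clozapine after MK-801, and the protocol is followed here. The labels give an age of postnatal day 21, a habituation of 14 days and, elsewhere, 5 weeks of age at the start of treatment. These ages are compatible if day 21 is the age before habituation, which was not checked here. The labels name 10 rats per group without saying how many rats a library holds. The spread behind each p-value is therefore that between libraries and may be technical.

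As background, let-7 miRNAs are made from several genes as hairpins that Drosha and Dicer cut. The RNA-binding proteins Lin28a and Lin28b hold back their maturation in undifferentiated cells, so mature let-7 rises as neural progenitors differentiate and stays abundant in the adult brain. A miRNA pairs with messenger RNAs chiefly through its seed, bases 2 to 8 counted from the 5′ end. Well-known targets of let-7 include Hmga2, Lin28a, Lin28b and Ras genes. MiR-98 has the same seed and is counted in the family despite its name.

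The 9 mature sequences, from RefSeq (GRCr8), are shown because the results depend on how little they differ, with the seed in capitals.
let-7a-5p: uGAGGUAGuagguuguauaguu
let-7b-5p: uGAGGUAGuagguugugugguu
let-7c-5p: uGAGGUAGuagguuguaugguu
let-7d-5p: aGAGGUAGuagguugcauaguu
let-7e-5p: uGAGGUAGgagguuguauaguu
let-7f-5p: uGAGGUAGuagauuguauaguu
let-7g-5p: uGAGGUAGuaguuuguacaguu
let-7i-5p: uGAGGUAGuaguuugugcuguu
miR-98-5p: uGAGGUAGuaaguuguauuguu

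Every member is 22 bases long and carries the seed GAGGUAG, which no other listed miRNA has at bases 2 to 8 (9 of 633, 1.42%). Of the 22 positions, 14 are the same in all members and 8 vary. Positions are counted from 1 at the 5′ end, with the first-named member's base first. Let-7a-5p differs by 1 base from let-7c-5p (A19G), from let-7e-5p (U9G) and from let-7f-5p (G12A), and let-7c-5p by 1 base from let-7b-5p (A17G). The step from let-7a-5p to let-7g-5p takes G12U and U18C, to let-7d-5p U1A and U16C, and to miR-98-5p G11A and A19U. Let-7g-5p and let-7i-5p, 2 bases apart (A17G and A19U), share a U at position 12. The sources used here do not give how reads that fit several members were assigned, so levels of members 1 base apart are uncertain.

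In the RefSeq annotation of GRCr8 these guides come from 12 hairpin genes, several of them close together. Mirlet7a1, the gene of let-7f-1 and Mirlet7d lie within 10 kb of each other on chromosome 17, inside a long noncoding RNA. Mirlet7f2 and Mir98 lie together inside the ubiquitin ligase gene Huwe1 on chromosome X, and Mirlet7c2 and Mirlet7b together on chromosome 7. Mirlet7a-2 neighbours Mir100 on chromosome 8, Mirlet7c1 neighbours Mir99a on chromosome 11, and Mirlet7e neighbours Mir99b and Mir125a inside Spaca6 on chromosome 1. Mirlet7g lies in Wdr82 on chromosome 8, and Mirlet7i on chromosome 7 has no miRNA gene within 10 kb. A let-7a-5p, let-7c-5p or let-7f-5p count therefore sums over more than 1 gene. Antisense miRNA genes (Mir3596a, Mir3596b and Mir3596c) lie opposite or beside several of them, and use of strand in the counting is not stated in those sources, so reads of such partners cannot be told apart.

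Library totals ran from 10665718 to 18284905 miRNA counts, and each member rested on at least 22965 counts in every library. The brain miRNAs miR-124-3p (3317 CPM on average, CPM being a count scaled to the same total in every library) and miR-9a-5p (84597 CPM) were present in every library, and the muscle and liver miRNAs miR-1-3p, miR-133a-3p and miR-122-5p together held 17.6 to 31.9 CPM. Markers of choroid plexus and ependyma, cells that border the hippocampus, summed to 5801, 3985 and 12395 CPM in VEH replicates 1, 2 and 3, to 3647 to 4496 CPM in MK-801 and to 2564 to 3855 CPM in MK-801+CLO. Of these 9 markers miR-200a-3p was at 0 in 2 libraries. Oligodendrocyte markers (miR-219a-2-3p and miR-338-3p) summed to 3655 to 4876 CPM in VEH, 3784 to 6143 CPM in MK-801 and 3714 to 5887 CPM in MK-801+CLO. Red blood cell markers (miR-144-3p, miR-451-5p and miR-486) summed to 3058 to 3550, 2699.8 to 3076 and 2959 to 3254 CPM. Nearly all of the red blood cell sum was miR-486 (3076 CPM on average over the 9 libraries). MiR-451-5p averaged 25.2 CPM and miR-144-3p 4.71 CPM. In bulk tissue, fewer cells of a type and less RNA per cell cannot be told apart, and the part of cell makeup in the results below was not tested.

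The family took a sizeable part of the miRNA counts of the hippocampus. It held 10.2% ± 0.901 (SD, n = 3) of all miRNA counts in VEH, 9.17% ± 0.132 in MK-801 and 8.73% ± 1.25 in MK-801+CLO. By library the share was 10.8%, 9.19% and 10.7% in VEH, 9.32%, 9.06% and 9.14% in MK-801, and 10.1%, 8.39% and 7.68% in MK-801+CLO. The 3 ranges overlapped. Beside it, the neuronal and abundant brain miRNAs miR-124-3p, miR-128-3p, miR-9a-5p, miR-26a-5p and miR-181a-5p averaged 3317, 17556, 84597, 90137 and 127330 CPM. These are single miRNAs, and miR-181a-5p alone was above the members summed (group means of 102288, 91708 and 87291 CPM). No other family was summed, so families were not ranked.

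Members differed more than 10-fold in level, in an order that was nearly the same in all groups. In VEH it ran let-7f-5p (30968 ± 2850 CPM, SD, n = 3), let-7c-5p (21596 ± 3015 CPM), let-7a-5p (13450.2 ± 1208 CPM), let-7g-5p (12674 ± 768 CPM), let-7i-5p (10745 ± 1022 CPM), let-7b-5p (3666 ± 355 CPM), miR-98-5p (3518 ± 255 CPM), let-7e-5p (3029 ± 107 CPM) and let-7d-5p (2642 ± 285 CPM). Let-7f-5p ranked 8 and let-7d-5p 46 by mean CPM among all miRNAs listed. Neighbours in this order whose VEH ranges overlapped were let-7a-5p with let-7g-5p, let-7g-5p with let-7i-5p, and let-7b-5p with miR-98-5p. In MK-801+CLO let-7g-5p stood above let-7a-5p in 3 of 3 libraries (means 12079 and 11285 CPM), against 0 of 3 in VEH and in MK-801.

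The most abundant member, let-7f-5p, stood at 32099.9, 27726 and 33079 CPM in VEH, at 28664, 27128 and 26481 CPM in MK-801, and at 29128, 24326 and 23552 CPM in MK-801+CLO. Let-7c-5p stood at 23481, 18118 and 23188 CPM in VEH, at 19096, 18226 and 19259 CPM in MK-801, and at 20588, 17041 and 14577 CPM in MK-801+CLO. For both, VEH replicates 1 and 3 were highest, VEH replicate 2 lay among the MK-801 libraries or near them, and MK-801+CLO replicate 1 lay above the other two of its group. Let-7b-5p, 1 base from let-7c-5p, followed it, at 3851, 3257 and 3890.3 CPM in VEH, at 3411, 3225 and 3429.9 CPM in MK-801, and at 3645, 3093 and 2609 CPM in MK-801+CLO.

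Let-7a-5p, which has the sequence of the let-7 first found in worms, stood at 14061, 12058 and 14232 CPM in VEH, at 11529.6, 11737 and 11761 CPM in MK-801, and at 13386, 10097 and 10371 CPM in MK-801+CLO. Its 3 MK-801 libraries agreed closely and lay below all VEH libraries, whereas the MK-801+CLO libraries lay on both sides of them. Let-7d-5p, the member with a different first base, was at 2707, 2329.7 and 2889 CPM in VEH, at 2303, 2380.3 and 2434 CPM in MK-801, and at 2570.3, 2153 and 2260.1 CPM in MK-801+CLO, and the groups overlapped. Let-7e-5p was at 3061, 2909.7 and 3117 CPM in VEH, at 2751, 2776 and 2651 CPM in MK-801, and at 3102, 2289.6 and 2513 CPM in MK-801+CLO. Its MK-801 libraries lay below all VEH libraries, and MK-801+CLO replicate 1 was back within the VEH range.

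Let-7g-5p and let-7i-5p, the pair with U at position 12, differed from each other in pattern. Let-7g-5p was at 12799.8, 11850.2 and 13371 CPM in VEH, at 11501, 11724 and 11735 CPM in MK-801, and at 13485, 11735 and 11018 CPM in MK-801+CLO. Let-7i-5p was at 11891, 10414 and 9929 CPM in VEH, at 10630.3, 10412 and 10552 CPM in MK-801, and at 12090.3, 10448 and 7875 CPM in MK-801+CLO. Let-7g-5p was highest in VEH replicate 3 and MK-801+CLO replicate 1, and let-7i-5p was lowest in the third replicate of both those groups. MiR-98-5p was at 3608, 3230.4 and 3716 CPM in VEH, at 3280, 2999 and 3048 CPM in MK-801, and at 3145, 2712 and 2065 CPM in MK-801+CLO. All 3 MK-801+CLO libraries of miR-98-5p lay below all VEH libraries, with replicate 3 lowest by far.

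**Figure D1:**
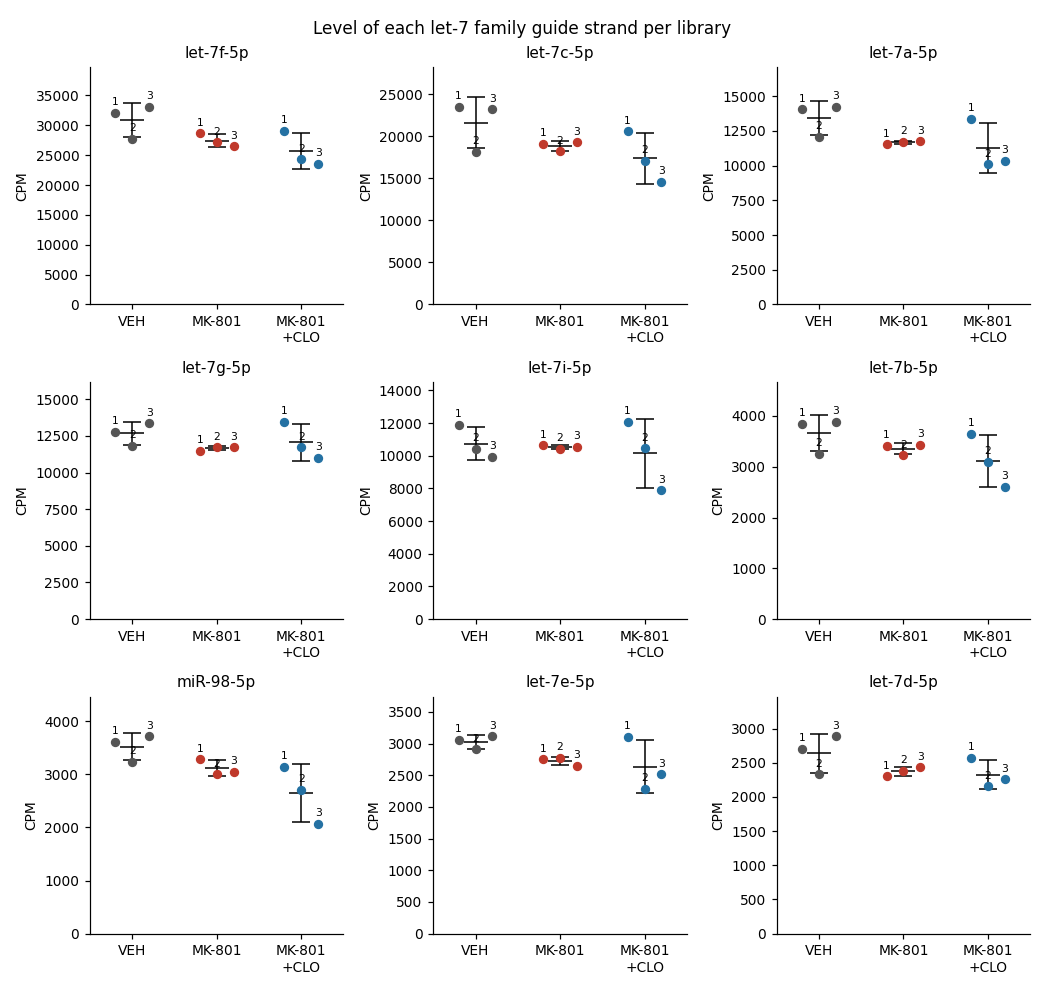
Level of each guide strand in CPM (y axis, from 0) in the 3 libraries of each group (x axis), with points numbered by replicate and bars showing mean ± SD. MK-801 libraries cluster tightly, VEH replicate 2 sits below VEH replicates 1 and 3 for 8 of 9 members, and MK-801+CLO replicate 1 is the highest of its group for every member.

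The comparison of MK-801 with VEH addresses the aim stated in the design text, which miRNAs differ after MK-801. No member passed an adjusted p of 0.05 in edgeR's quasi-likelihood test with Benjamini-Hochberg adjustment over 469 miRNAs (0% of all tested miRNAs called). None had an unadjusted p under 0.05 in edgeR (5.12% of all miRNAs did). DESeq2 called 1 of 469 miRNAs and none of the members. All 9 members had a log2 fold change below 0, against 53.5% of all miRNAs, with a median of -0.13 beside -0.018 for all miRNAs. Let-7a-5p was at -0.18 ± 0.11 (log2 fold change ± SE, adjusted p = 0.814, edgeR), let-7c-5p at -0.17 ± 0.13, miR-98-5p at -0.16 ± 0.13 and let-7f-5p at -0.15 ± 0.10. Let-7d-5p and let-7e-5p were both at -0.13, let-7b-5p and let-7g-5p at -0.10 and -0.099, and let-7i-5p at -0.0061 ± 0.13. With upper-quartile scaling, which moved the median of all miRNAs to 0.074, 8 members were below 0 with a median of -0.042, and let-7i-5p was at 0.085. The CPM ranges of 3 members, let-7a-5p, let-7e-5p and let-7g-5p, lay wholly below VEH (7.89% of all miRNAs did) and 0 lay wholly above (5.97% did), but after TMM scaling of the libraries only let-7e-5p did (6.61% of all miRNAs). Summed choroid plexus and ependyma marker CPM was highest in VEH replicates 3 and 1, and the part of these cells in these values was not tested. Without VEH replicate 3 the median of the members was -0.10.

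Between MK-801+CLO and MK-801, which asks what clozapine adds after MK-801, the members stayed close to 0. No member was called by edgeR (0% of all miRNAs) or by DESeq2 (2 of 469 miRNAs called). None had an unadjusted p under 0.05 in edgeR (8.32% of all miRNAs did). Of the members, 7 of 9 were below 0 (51.2% of all miRNAs), with a median of -0.022 beside -0.004 for all. The ends of the range were miR-98-5p at -0.20 ± 0.13 (adjusted p = 0.68, edgeR) and let-7g-5p at 0.088 ± 0.088 (adjusted p = 0.761). Let-7c-5p was at -0.083, let-7b-5p at -0.074, let-7f-5p at -0.060, let-7i-5p at -0.022, let-7a-5p at -0.015, let-7e-5p at -0.014 and let-7d-5p at 0.0087. No member's CPM range was apart from MK-801 (6.82% of all miRNAs lay below and 4.69% above), nor its TMM-scaled range (4.48% below). MK-801+CLO replicate 3 set the sign of the median, which was 0.012 without that library, with 3 of 9 members below 0. Upper-quartile scaling moved the median of all miRNAs to -0.116 and put all 9 members below 0, with a median of -0.137.

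Against VEH, MK-801+CLO gave the lowest value of any member. MiR-98-5p was at -0.36 ± 0.13 (unadjusted p = 0.0239, adjusted p = 0.254, edgeR), the only member with an unadjusted p under 0.05 (14.9% of all miRNAs had one) and the only one whose CPM range lay below VEH (11.5% of all miRNAs), also after TMM scaling (8.53%). No member's range lay above VEH (5.97% of all miRNAs did). Left-out libraries moved its value between -0.47 and -0.25, and its unadjusted p was no longer under 0.05 without VEH replicate 1, without VEH replicate 3 or without MK-801+CLO replicate 3. No member was called by edgeR (0% of all miRNAs) or by DESeq2 (11 of 469 miRNAs called, or 3 with its default filtering). All 9 were below 0, against 49.9% of all miRNAs, with a median of -0.18 beside 0.003 for all. Let-7c-5p was at -0.26, let-7f-5p at -0.21 ± 0.10, let-7a-5p at -0.20, let-7b-5p at -0.18, let-7e-5p at -0.14 and let-7d-5p at -0.12, and let-7i-5p and let-7g-5p were at -0.028 and -0.011. With DESeq2's size factors let-7g-5p was at 0.0026. The 3 comparisons share groups, so they are not independent of each other, and the 9 members, which may share reads, are not replicates of a condition.

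**Figure D2:**
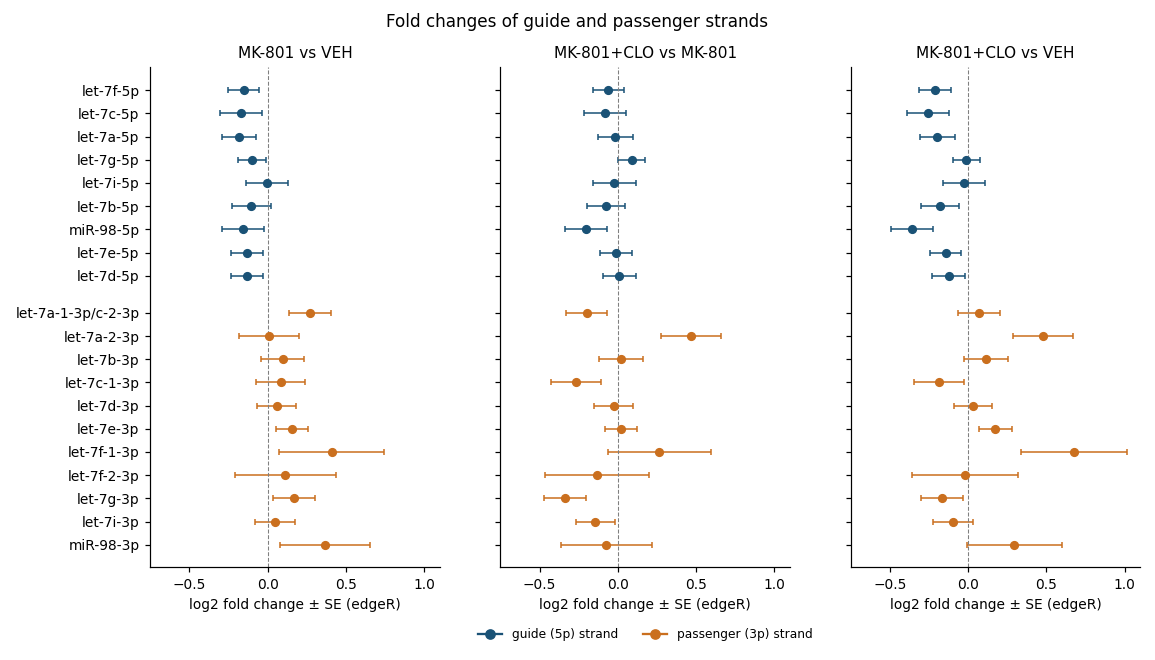
Log2 fold change ± SE from edgeR (x axis) of the 9 guide strands (blue) and 11 passenger strands (orange), in 3 panels for the 3 comparisons. In MK-801 against VEH all guides lie at or left of 0 and all passengers right of it, and none passed the adjusted threshold.

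In some libraries most or all members deviated the same way. Relative to each member's own mean over 9 libraries, on TMM-scaled log2 levels, VEH replicate 1 was above for 9 of 9 members (mean deviation 0.18), VEH replicate 3 for 8 of 9 (0.17) and MK-801+CLO replicate 1 for 9 of 9 (0.11). MK-801 replicate 2 and MK-801+CLO replicate 3 were above for 0 of 9, with mean deviations of -0.11 and -0.22. The other 4 libraries were split, with 5 of 9 members above in MK-801 replicate 1, 6 in MK-801 replicate 3, and 2 in both VEH replicate 2 and MK-801+CLO replicate 2. The lowest single deviation, -0.50, was that of miR-98-5p in MK-801+CLO replicate 3. In every group some libraries lay above and some below the members' means.

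The members' spread within a group also varied. The median coefficient of variation over members was 9.2% in VEH, 2.78% in MK-801 and 16.2% in MK-801+CLO. For 174 other miRNAs of at least 100 CPM the medians were 7.61%, 8.83% and 11.3%, and 59.8%, 9.77% and 72.4% of them had a lower value than the members' median in the same group. This comparison was chosen after seeing the data, and equal spread was not tested.

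**Figure D3:**
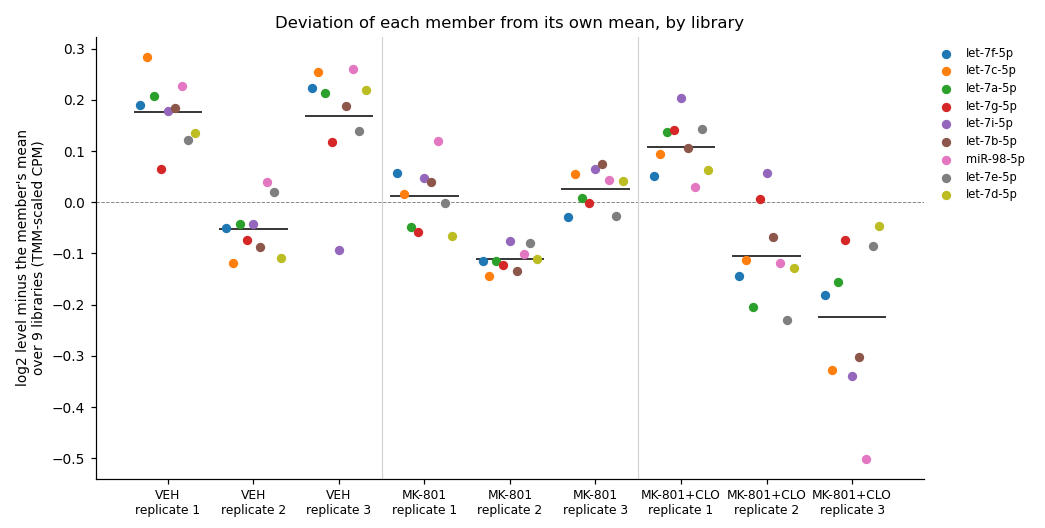
Log2 deviation of each member from its own mean over 9 libraries (y axis, TMM-scaled CPM) in each library (x axis), with a horizontal bar at the mean of the members. All 9 members lie above 0 in VEH replicate 1 and MK-801+CLO replicate 1 and below 0 in MK-801 replicate 2 and MK-801+CLO replicate 3, other libraries are mixed, and let-7i-5p departs from the others in VEH replicate 3 and miR-98-5p in MK-801+CLO replicate 3.

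The median likeness of 2 members over the 9 libraries was lower the more bases they differed by, with overlapping ranges. Pearson's r of log2 CPM had a median of 0.949 over the 4 pairs 1 base apart (0.919 to 0.986) and 0.879 over the 10 pairs 2 bases apart (0.629 to 0.95). It was 0.846 over 11 pairs 3 apart (0.732 to 0.95) and 0.715 over 9 pairs 4 apart (0.569 to 0.841). The single pairs 5 and 6 bases apart were at 0.493 and 0.363. The lowest values of pairs 2, 4, 5 and 6 bases apart all involved let-7i-5p, including let-7g-5p with let-7i-5p at 0.629. Against the mean of the other 8 members, let-7c-5p (0.98) and let-7b-5p (0.971) were closest and let-7i-5p (0.592) farthest. These values are descriptions over libraries that share depth and composition, and shared reads between near-identical members would also raise them, which was not tested.

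Among 174 other miRNAs of at least 100 CPM, the 5 whose TMM-scaled log2 level most resembled the members' mean were miR-326-3p (r = 0.839 over 9 libraries), miR-1839-5p (0.827), miR-145-5p (0.753), miR-221-3p (0.752) and miR-195-5p (0.743). MiR-326-3p, the closest, stood at 593, 457 and 616 CPM in VEH, at 549, 485 and 466 CPM in MK-801, and at 474, 394 and 395 CPM in MK-801+CLO. The most opposed were miR-149-5p (-0.801), miR-379-3p (-0.778) and miR-340-5p (-0.762), and the median over all candidates was -0.104.

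Shares within the family do not depend on how whole libraries are scaled. Let-7f-5p took 29.9% of the family's counts on average, let-7c-5p 20.5%, let-7g-5p 13.0%, let-7a-5p 12.9% and let-7i-5p 11.2%, and the counting error (95% Wilson interval) was at most 0.094 percentage points either way. The description of single shares that follows was chosen after seeing the data. Let-7g-5p took 11.9%, 12.9% and 12.45% in VEH, 12.35%, 12.9% and 12.9% in MK-801, and 13.3%, 14.0% and 14.3% in MK-801+CLO. All 3 MK-801+CLO libraries were above every other library (4.9% of all miRNAs, each over the family's summed count, lay apart upward from MK-801, and 11.9% from VEH). MiR-98-5p took 3.35%, 3.52% and 3.46% in VEH, 3.52%, 3.31% and 3.34% in MK-801, and 3.11%, 3.23% and 2.69% in MK-801+CLO. Here all 3 MK-801+CLO libraries were below every other library (4.26% of all miRNAs lay apart downward from MK-801 and 2.35% from VEH). The family's summed count, the divisor, held a smaller mean share of all counts in MK-801+CLO (8.73%) than in VEH (10.2%). A smaller divisor raises other miRNAs on this scale, so the 2.35% does not measure how rare such a drop is.

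The ratio of these members, also chosen after seeing the data, set them against each other. The log2 ratio of let-7g-5p to miR-98-5p was 1.85 ± 0.024 (SD, n = 3) in VEH, 1.91 ± 0.085 in MK-801 and 2.21 ± 0.18 in MK-801+CLO. By library it was 1.83, 1.88 and 1.85 in VEH, 1.81, 1.97 and 1.95 in MK-801, and 2.10, 2.11 and 2.42 in MK-801+CLO, which did not overlap with either other group. Among 16653 pairs of abundant miRNAs, 10.7% of ratios did not overlap between MK-801+CLO and MK-801 and 16.5% between MK-801+CLO and VEH, so such a separation was frequent.

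Let-7i-5p took 11.06%, 11.3% and 9.24% of the family's counts in VEH, 11.4%, 11.5% and 11.55% in MK-801, and 11.95%, 12.45% and 10.2% in MK-801+CLO. Its MK-801 share lay above VEH (13.6% of all miRNAs did), and the low VEH value was that of replicate 3. The log2 ratio of let-7g-5p to let-7i-5p, likewise chosen after seeing the data, was 0.43 in VEH replicate 3 and 0.48 in MK-801+CLO replicate 3, against 0.11 to 0.19 in the other 7 libraries, so these 2 libraries stood apart in 2 different groups. Let-7a-5p took 13.15% ± 0.091 in VEH and 12.7% ± 0.31 in MK-801, without overlap (1.28% of all miRNAs lay apart downward and 13.6% upward). The divisor, the family's summed count, held a smaller mean share of all counts in MK-801 (9.17%) than in VEH (10.2%). A smaller divisor raises other miRNAs on this scale, so the 1.28% does not measure how rare such a drop is. Added up to remove the effect of reads shared 1 base apart, let-7a-5p, let-7b-5p, let-7c-5p, let-7e-5p and let-7f-5p took 71.0% ± 1.23 in VEH, 69.8% ± 0.367 in MK-801 and 68.9% ± 1.03 in MK-801+CLO, and the ranges overlapped in all 3 comparisons.

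Neighbouring miRNA genes gave ratios between products of nearby hairpins. MiR-100-5p, of the gene beside Mirlet7a-2, stood at 3197 ± 153 CPM in VEH, 3538 ± 239 CPM in MK-801 and 4089 ± 322 CPM in MK-801+CLO, with log2 fold changes of 0.17 ± 0.11 in MK-801 against VEH, 0.25 ± 0.11 in MK-801+CLO against MK-801, and 0.42 ± 0.11 in MK-801+CLO against VEH (adjusted p = 0.174, edgeR). In that last comparison DESeq2 put it at an adjusted p of 0.049 with its independent filtering set to 0.05, and at 0.0522 with the default setting of 0.1, so the DESeq2 call rests on that setting. EdgeR and limma did not call it in any alternative run. The log2 ratio of let-7a-5p to miR-100-5p was 2.10, 1.88 and 2.24 in VEH, 1.71, 1.83 and 1.64 in MK-801, and 1.84, 1.27 and 1.25 in MK-801+CLO. All libraries of both MK-801 groups lay below all VEH libraries, where 13.5% of pairs of abundant miRNAs lay apart between MK-801 and VEH. The ratio was chosen after seeing the data, and let-7a-5p counts also include the other let-7a gene.

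The other neighbours did not share that pattern in full. MiR-99a-5p, beside Mirlet7c1, was at 0.16, -0.032 and 0.13 in the same order of comparisons, and miR-99b-5p, beside Mirlet7e, at 0.14, 0.059 and 0.20. MiR-125a-5p, from the same region as miR-99b-5p, was at -0.16, 0.15 and -0.015, and its relative miR-125b-5p at -0.056, 0.11 and 0.053. Of these 5 miRNAs, 0 were called by edgeR in any comparison, and by DESeq2 only miR-100-5p as above, in MK-801+CLO against VEH.

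**Figure D4:**
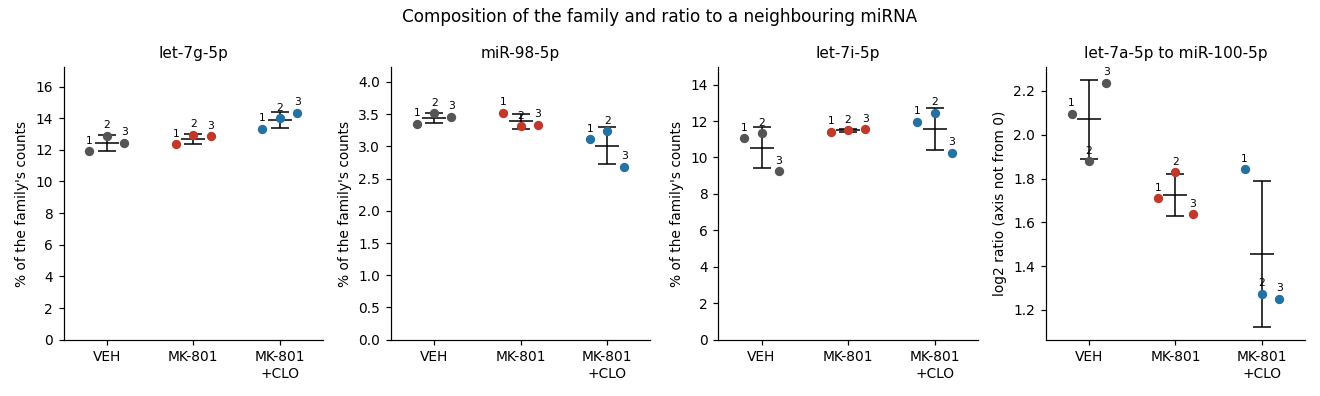
Share of the family's counts (y axis, %, from 0) of let-7g-5p, miR-98-5p and let-7i-5p, and the log2 ratio of let-7a-5p to miR-100-5p (y axis not from 0), in the 3 libraries of each group (x axis), with replicate numbers and mean ± SD. In MK-801+CLO every library is above the others for let-7g-5p and below the others for miR-98-5p, and the low let-7i-5p values are the third replicates of VEH and MK-801+CLO.

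The passenger strands, the 3p arms of the same hairpins, were read as a second measure that the choice of members did not use. Of 12 such strands 2 shared a joint name (let-7a-1-3p and let-7c-2-3p), which left 11 entries, and all 11 were tested. Hairpins of RefSeq (GRCr8) are shown for the member with the largest passenger share (let-7d), 2 with shares apart from VEH in MK-801 (let-7e and let-7g) and the lowest-counted one (miR-98), with both mature arms in capitals, 5p first.
let-7d: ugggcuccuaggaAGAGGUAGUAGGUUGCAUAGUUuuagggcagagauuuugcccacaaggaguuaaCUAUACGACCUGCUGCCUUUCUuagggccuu
let-7e: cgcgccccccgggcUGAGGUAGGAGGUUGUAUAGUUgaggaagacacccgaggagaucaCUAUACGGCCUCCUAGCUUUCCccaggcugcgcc
let-7g: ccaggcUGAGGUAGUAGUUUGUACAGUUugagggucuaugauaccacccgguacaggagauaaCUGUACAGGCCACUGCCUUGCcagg
miR-98: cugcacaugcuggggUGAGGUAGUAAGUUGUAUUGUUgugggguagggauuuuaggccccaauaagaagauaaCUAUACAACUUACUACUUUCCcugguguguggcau

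Passenger strands were scarce except for let-7d. Of both arms' counts, the 3p arm took 16.2% ± 0.407 (SD, n = 3) for let-7d in VEH, 0.949% ± 0.0363 for let-7e, 0.782% ± 0.112 for let-7b, 0.356% ± 0.0312 for let-7i, 0.235% ± 0.0259 for let-7a and let-7c together, 0.0917% ± 0.00626 for let-7g, 0.0204% ± 0.00304 for miR-98 and 0.0107% ± 0.00206 for let-7f. The lowest rested on few reads, 8 to 19 counts a library for miR-98-3p and 36 to 77 for both let-7f passengers, against 5385 to 9875 for let-7d-3p.

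In MK-801 against VEH all 11 passenger entries had a log2 fold change above 0 (46.5% of all miRNAs did), with a median of 0.11, where all 9 guides were below 0. The highest were let-7f-1-3p at 0.41 ± 0.34, miR-98-3p at 0.37 ± 0.29 and the joint entry of let-7a-1-3p and let-7c-2-3p at 0.27 ± 0.13, and 0 of 11 were called by edgeR. In MK-801+CLO against MK-801, 4 of 11 were above 0 (48.8% of all miRNAs, median -0.073), with let-7a-2-3p at 0.47 ± 0.19 and let-7g-3p at -0.34 ± 0.13 at the ends. For MK-801+CLO against VEH, 7 of 11 were above 0 (50.1% of all miRNAs, median 0.070).

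That contrast of signs, seen in the data, led to a comparison of the 3p share within each hairpin, which library scaling does not touch. For let-7d the share was 16.5%, 16.4% and 15.75% in VEH, 17.5%, 17.8% and 18.9% in MK-801, and 15.5%, 20.5% and 17.4% in MK-801+CLO (95% Wilson intervals at most 0.466 percentage points either way). For let-7e it was 0.910%, 0.955% and 0.982% in VEH, 1.12%, 1.11% and 1.24% in MK-801, and 1.00%, 1.38% and 1.215% in MK-801+CLO. For let-7a and let-7c together it was 0.242%, 0.257% and 0.207% in VEH, 0.304%, 0.311% and 0.318% in MK-801, and 0.278%, 0.293% and 0.291% in MK-801+CLO. Wilson intervals reached 0.145 percentage points either way for let-7e and 0.0197 for let-7a with let-7c. In all 3 cases the MK-801 libraries were above all VEH libraries. For let-7e and for let-7a with let-7c the MK-801+CLO libraries also lay above VEH, but the Wilson intervals of the nearest libraries overlapped.

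Let-7g differed from these. Its 3p share was 0.0847%, 0.0967% and 0.0936% in VEH, 0.1004%, 0.124% and 0.107% in MK-801, and 0.0814%, 0.0727% and 0.0923% in MK-801+CLO. The MK-801 libraries were above those of both other groups, but the nearest ones, MK-801 replicate 1 and VEH replicate 2, had 95% Wilson intervals of 0.0865% to 0.117% and 0.0817% to 0.114%, so their difference is within counting error. For miR-98 the share was 0.0199%, 0.0237% and 0.0177% in VEH, 0.0246%, 0.0372% and 0.0258% in MK-801, and 0.0274%, 0.0277% and 0.0429% in MK-801+CLO, with Wilson intervals up to 0.0252 percentage points either way, wider than the gap between the groups.

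In all, 5 of 8 hairpin shares (let-7d, let-7e, let-7g, miR-98 and let-7a with let-7c) lay above VEH without overlap in MK-801, where 6.43% of 140 other miRNAs with both arms tested did, and 0 lay below (8.57% of others). For let-7e, let-7g and miR-98 the intervals of the nearest MK-801 and VEH libraries overlapped. In MK-801+CLO against VEH 4 of 8 lay above (7.14% of others), let-7e, miR-98, let-7f and let-7a with let-7c, and 0 below (7.86% of others). In MK-801+CLO against MK-801 0 lay above (4.29% of others) and 2 below (6.43% of others), let-7g and let-7a with let-7c. In both of these comparisons the intervals of the nearest libraries overlapped for every share that lay apart. Counting error alone could therefore reverse the order of those nearest libraries. Whether it could account for a difference between whole groups was not tested. A limma fit of the log2 ratio of 3p to 5p counts over 148 hairpin pairs, added after seeing the data, called 0 pairs at an adjusted p of 0.05 in any of the 3 comparisons (0% of pairs). These shares and ratios were examined because the guides lay below 0 and the passengers above 0 in MK-801 against VEH. Their direction in that comparison was already set, so nothing is read from it or from the share counts above. MK-801+CLO against VEH uses the same VEH libraries, so its counts are no independent check. In MK-801 against VEH all 8 ratios were above 0 (51.4% of the other pairs were), with a median of 0.28 beside 0.018 for all pairs. The ratio of let-7a with let-7c was 0.41 ± 0.11 higher on the log2 scale (unadjusted p = 0.00459, adjusted p = 0.381, limma), and it was the 1 family ratio at an unadjusted p under 0.05 (8.11% of pairs). That number was 3 without MK-801 replicate 1 (9 of all 148 pairs) and 2 without VEH replicate 2 (14 of 148). It was also 2 without any 1 of the MK-801+CLO libraries (12 or 13 of 148). Between MK-801+CLO and MK-801 4 of 8 were above 0 (52.9% of the other pairs), and let-7g was at -0.43 ± 0.13 (unadjusted p = 0.0106, adjusted p = 0.491, limma). In MK-801+CLO against VEH 6 of 8 were above 0 (50.7% of the other pairs), 4 of them at an unadjusted p under 0.05 (12.2% of pairs). That number was 0 without VEH replicate 3 (9 of all 148 pairs). It was 1 without either MK-801+CLO replicate 2 (17 of 148) or MK-801+CLO replicate 3 (10 of 148).

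**Figure D5:**
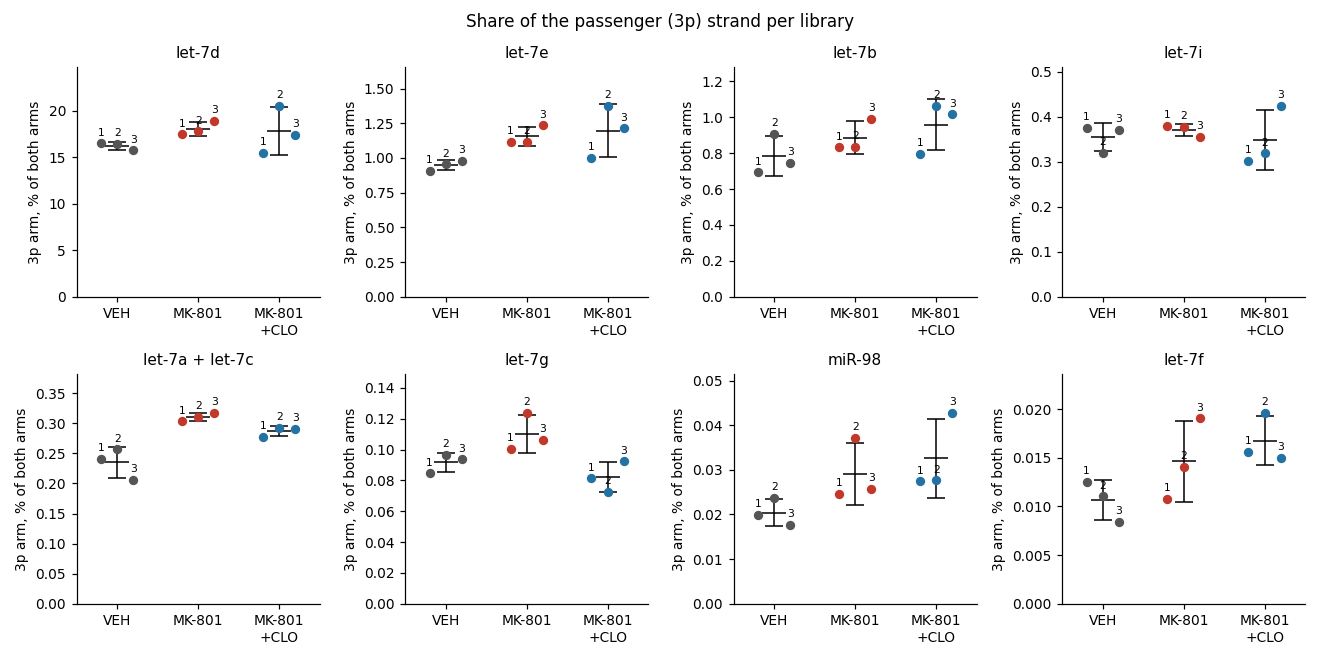
Share of the passenger (3p) strand in the counts of both arms (y axis, %, from 0, different for each panel) of 8 hairpin groups in the 3 libraries of each group (x axis), with replicate numbers and mean ± SD. The MK-801 points lie above all VEH points for let-7d, let-7e, let-7g, miR-98 and let-7a with let-7c, and the MK-801+CLO points of let-7g overlap VEH.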

How the data were processed

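The authors deposited 1 table that holds, for each miRNA, whole-number counts and values headed TPM. The deposited TPM values match CPM, the count over its library's total at a common scale, within 0.000473% and were used as CPM. Per the labels, RNA came from frozen hippocampus and libraries followed Illumina protocols. The submitters' processing notes name cutadapt 1.14, Bowtie, DESeq and the build Rnor_6.0, without roles. The table had 21 blank lines and 1 split name, which was rejoined, and no gene-less entries. Groups and replicate numbers came from sample titles.

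Counts were tested with edgeR 4.0.16 (R 4.3.3): filterByExpr, TMM factors and 1 quasi-likelihood fit of all 9 libraries, with Benjamini-Hochberg adjustment over 469 miRNAs at 0.05. SE is the absolute log2 fold change over the square root of F. Arm ratios were tested in limma 3.58.1 on log2 ratios with 0.5 added to each count. Alternatives were voom and limma-trend in limma (log2 CPM with 1 or 0.1 added), DESeq2 1.42.0, other scalings and filters, the replicate block, 2 groups alone, and each library left out. The code was tested on simulated data. No 2 libraries were identical. Wilson intervals cover counting error only.

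Beside the 9 members, the rule for miRNAs named in the text took their passenger strands (which are not members), neighbouring miRNAs, reference and marker miRNAs, and the 5 most and 3 least correlated miRNAs. Members, lists and tests were chosen with earlier results of these data known. Sequences and gene neighbours are from RefSeq (GRCr8), all 9 members matched by name with the same letters in the deposited table, and no coordinates are given since the builds differ.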

Additional observations from a re-analysis of the deposited data

How the results depend on the processing

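In each of 21 alternatives per comparison, 0 members passed an adjusted p of 0.05, and 17 of 27 member comparisons kept their sign. The median log2 fold change of the members in MK-801+CLO against MK-801 ranged from -0.134 to 0.012 with libraries left out. In the other comparisons it kept its sign, reaching -0.215 without VEH replicate 2 (MK-801 against VEH) and -0.276 without MK-801+CLO replicate 1 (MK-801+CLO against VEH). In that last run 5 members had an unadjusted p under 0.05 in edgeR, as did 84 of the 476 miRNAs tested. Replicate numbers showed no sign of pairing the samples (correlations of same-numbered libraries -0.585 to 0.309, of differently numbered ones -0.517 to 0.538). With 3 libraries per group this check cannot exclude a pairing. With the replicate block the medians were -0.130, -0.037 and -0.177 in the order MK-801 against VEH, MK-801+CLO against MK-801 and MK-801+CLO against VEH. DESeq2 called 11 miRNAs in MK-801+CLO against VEH with independent filtering at 0.05, a setting chosen after a first run at the default of 0.1 that called 3, and no member in either. The 3p to 5p ratios of the family gave 0 calls in limma in every alternative run.

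Signs that changed belonged to uncalled values near 0, and the cause was not tested. In MK-801 against VEH, let-7i-5p was at 0.085 with upper-quartile factors, 0.019 with a minimum of 10 CPM, 0.0025 with the replicate block and -0.059 to 0.059 with libraries left out, and miR-125b-5p was at 0.038 with upper-quartile factors. In MK-801+CLO against MK-801, let-7e-5p was at 0.0002 with DESeq2 and 0.0001 with RLE factors. With upper-quartile factors let-7d-5p, let-7g-5p, miR-99b-5p and miR-125b-5p were at -0.107, -0.027, -0.047 and -0.0042. Let-7d-5p was at -0.027 with library totals and -0.032 with a minimum of 10 CPM. With libraries left out, let-7a-5p ranged from -0.128 to 0.045, let-7b-5p from -0.174 to 0.022, let-7c-5p from -0.194 to 0.013, let-7d-5p from -0.042 to 0.053, let-7e-5p from -0.119 to 0.065, let-7i-5p from -0.140 to 0.116, miR-99a-5p from -0.181 to 0.066 and miR-99b-5p from -0.075 to 0.159. In MK-801+CLO against VEH, DESeq2 and RLE factors both put let-7g-5p at 0.0026 and miR-125a-5p at 0.0016, and library totals put miR-125b-5p at -0.0083. With libraries left out there, let-7g-5p ranged from -0.068 to 0.029, let-7i-5p from -0.144 to 0.089, miR-125a-5p from -0.054 to 0.020 and miR-125b-5p from -0.017 to 0.099.

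The difference of the let-7i-5p share between MK-801+CLO and MK-801 ranged from -0.383 to 0.720 percentage points with libraries left out, and the number of 3p shares apart above MK-801 from 0 to 1. The log2 change of the let-7i 3p to 5p ratio ranged from -0.012 to 0.105 in MK-801 against VEH and from -0.193 to 0.053 in MK-801+CLO against VEH. Depth limited mainly miR-98-3p, with 8 to 19 counts a library.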
